A study of Mus musculus with 12 samples.

Results

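In RNA-Seq libraries of purified CD4+ T cells, 10 genes that mark red cell precursors or platelets were examined. The 5 erythroid genes Hba-a1, Hba-a2, Hbb-bs, Hbb-bt and Alas2 and the 5 platelet genes Pf4, Ppbp, Itga2b, Gp9 and Treml1 were taken by name from a table of 35275 Ensembl genes, and each name matched 1 row. The cells were obtained by depleting all others on magnetic columns from female mice of B6 (C57BL/6J) and of SLE123, a strain on the B6 background that carries the lupus susceptibility intervals Sle1, Sle2 and Sle3 of NZM2410 in every cell. Mice of each strain were either left untreated or received anti-CD45RB (clone MB23G2), an antibody to a splice form of the phosphatase CD45, in 5 intraperitoneal injections of 100 μg between day 0 and day 7. There were 3 mice in each of the 4 groups, 1 library per mouse, and the study's text gives their age as 9 weeks in one place and 9 to 12 weeks in another. The comparisons asked how the treatment acted in each strain, how the strains differed with and without it, and whether the effect of treatment differed between the strains.

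Hemoglobin of adult mice is assembled from alpha chains and beta chains, each encoded by a pair of nearly identical genes, and Alas2 encodes the enzyme that starts haem synthesis in erythroid cells. Platelets are shed by megakaryocytes and carry RNA from them, including that of the granule chemokines Pf4 and Ppbp, the integrin chain Itga2b, the von Willebrand factor receptor subunit Gp9 and the granule receptor Treml1. The mouse spleen makes red cells and platelets throughout life and more of them in disease, and T cells are not known for transcribing the globin genes.

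The libraries held 13563594 to 23642949 mapped fragments, recovered from the FPKM values (fragments scaled to transcript length and to the mapped total of the library). All 12 T cell markers examined, such as Cd3e and Cd4, were detected in every mouse, with summed levels of 4124 to 5761 FPKM. The erythroid genes together reached 0.706 to 43.1 FPKM and the platelet genes 2.72 to 21.6 FPKM, which was 11 to 765 and 119 to 523 fragments per library. Transcripts of liver genes stood at summed levels of 46.1 to 54.3 FPKM in the 6 B6 libraries and in SLE123 treated replicate 1, and at no more than 0.511 FPKM in the other 5 libraries. In SLE123 untreated replicate 3 the markers of B cells summed to 239.5 FPKM and those of red pulp macrophages to 86.0 FPKM, the highest of all libraries. In bulk RNA, fewer cells of a lineage and less RNA per cell cannot be told apart. Tests were made with limma on log2(FPKM + 1) over 13115 genes, those averaging 0.5 FPKM or more across the 12 mice, and a gene was called at a Benjamini-Hochberg adjusted p under 0.05. This filter kept 6 of the 10 genes. Hba-a2, Alas2, Gp9 and Treml1 lay under it, with Gp9 at a mean of 0.496 FPKM just outside and Hbb-bt at 1.23 FPKM the lowest inside, and their values are given without a call. Ppbp passed through the treated B6 mice alone, so that a difference of that group was a condition of its being tested.

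The globin genes have to be read as pairs, because the members of a pair share most of their sequence. Hba-a1 (chr11:32283511-32284465) and Hba-a2 (chr11:32296489-32297298) lie on the plus strand of GRCm38, 12023 bases apart, and their coding sequences of 429 bases differ at 1 position. Hbb-bt (chr7:103812524-103813996) and Hbb-bs (chr7:103826534-103828096) lie on the minus strand, 12537 bases apart, and their coding sequences of 444 bases also differ at 1 position. The substitutions were C381T between Hba-a1 and Hba-a2 and C417T between Hbb-bs and Hbb-bt, with positions counted from 1 at the first base of the start codon and the base of the first-named gene first. The annotated transcripts share stretches of up to 415 bases in the alpha pair and 430 bases in the beta pair, beyond which they differ in their untranslated ends. The coding windows around the differing base, which is shown as the capital, were the following.
Hba-a1: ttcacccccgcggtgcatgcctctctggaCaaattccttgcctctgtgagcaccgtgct
Hba-a2: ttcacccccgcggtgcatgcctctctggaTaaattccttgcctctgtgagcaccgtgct
Hbb-bs: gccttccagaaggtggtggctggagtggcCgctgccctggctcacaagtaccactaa
Hbb-bt: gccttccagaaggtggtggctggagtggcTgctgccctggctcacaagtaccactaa
How fragments that fit both genes of a pair were assigned is not given in the sources used here, so the split within a pair is uncertain.

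Within the alpha pair the split differed between the strains. In B6, Hba-a2 took 15 of 145 alpha globin fragments, or 10.3% (95% exact Clopper-Pearson interval 5.91 to 16.5%). In SLE123 it took 1 of 1000 fragments, or 0.1% (0.00253 to 0.556%), and that fragment came from treated replicate 1. Among the untreated SLE123 mice, 0 of 869 alpha globin fragments went to Hba-a2 (0 to 0.424%). Hba-a2 was detected in 5 of 6 B6 mice, at 0.266, 0.772 and 0.429 FPKM in treated mice and at 0, 0.0998 and 0.112 FPKM in untreated mice. The beta pair showed no such split by strain. Hbb-bt took 28.2% of 117 beta globin fragments in B6 (20.3 to 37.3%) and 23.2% of 723 in SLE123 (20.2 to 26.5%). These intervals cover counting error only, and fragments without molecular identifiers are not independent molecules.

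**Figure D1:**
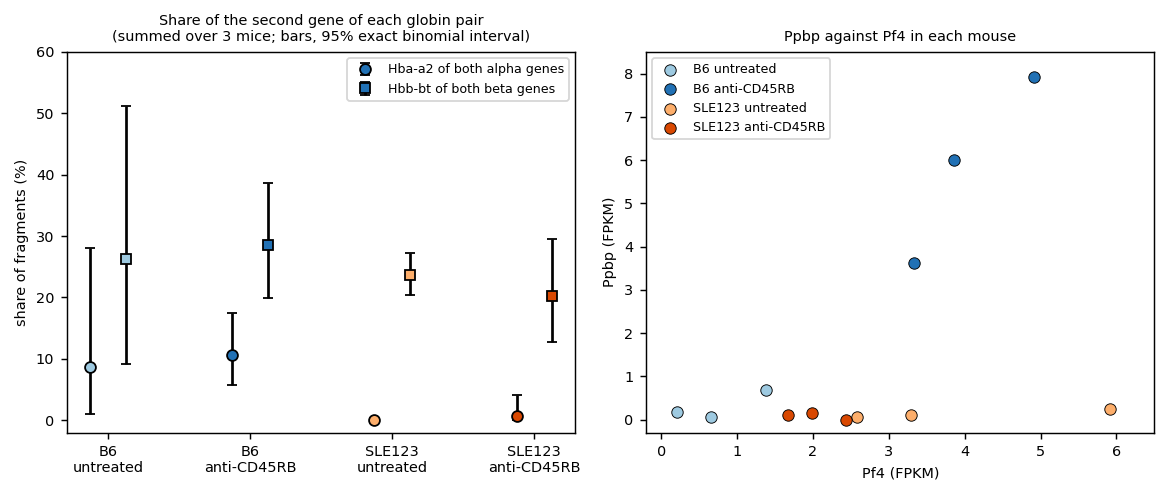
Left, share of fragments (%) taken by Hba-a2 within the alpha pair and by Hbb-bt within the beta pair in each group, summed over 3 mice, with 95% exact binomial intervals. Right, Ppbp against Pf4 (FPKM) in each of the 12 mice. The Hba-a2 share was 10.7% in treated B6 and 0% in untreated SLE123, and Ppbp stayed at or under 0.689 FPKM in all mice other than the 3 treated B6 mice.

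Of the 5 erythroid genes, 4 had their highest mean in untreated SLE123 mice and their lowest in untreated B6 mice, and Hba-a2, which was at 0 in untreated SLE123 and highest in treated B6, was the exception. Hba-a1 stood at 21.3, 15.5 and 25.5 FPKM in the untreated SLE123 mice and at 0.266, 0.633 and 0.889 FPKM in the untreated B6 mice, a ratio of means of 34.8. Hbb-bs stood at 10.7, 8.12 and 12.01 FPKM against 0.319, 0.355 and 0.399 FPKM, a ratio of 28.7. The lowest untreated SLE123 mouse was far above the highest untreated B6 mouse for both genes. Hbb-bt stood at 1.89, 3.73 and 4.63 FPKM against 0, 0 and 0.442 FPKM, again without overlap. Alas2 followed at a lower level, with 0.861, 0.525 and 0.955 FPKM against 0.122, 0.136 and 0.183 FPKM, a ratio of 5.32.

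The 3 tested globin genes were called higher in untreated SLE123 than in untreated B6, in a comparison in which 42.9% of all tested genes were called and 22.8% were called higher. The log2 fold change was 3.76 ± 0.21 (SE) for Hba-a1 (limma adjusted p = 2.65e-05), 3.04 ± 0.15 for Hbb-bs (limma adjusted p = 1.54e-05) and 1.91 ± 0.27 for Hbb-bt (limma adjusted p = 0.00149). Of the 5 erythroid genes, 4 were higher without overlap between the groups, where 29.1% of tested genes were, and Hba-a2 was the exception. Leaving out any 1 of the 6 mice kept all 3 calls, and without SLE123 untreated replicate 3 or any other mouse the change of Hba-a1 stayed between 3.60 and 3.95. Markers of B cells, of monocytes, macrophages and neutrophils, of red pulp macrophages and of basophils were also higher in these SLE123 libraries, as given with the marker lists, and their part in the globin difference was not tested.

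**Figure D2:**
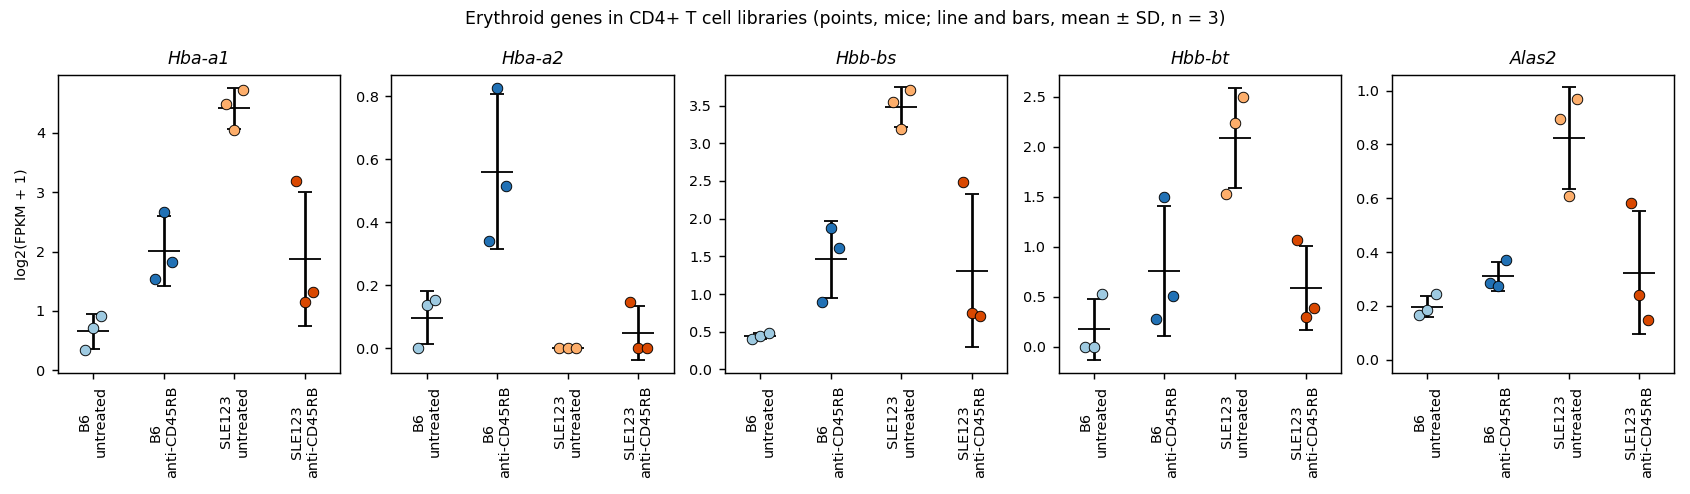
Levels of the 5 erythroid genes as log2(FPKM + 1) in each mouse (points) of the 4 groups, with the mean and SD (n = 3), each panel on its own scale. Hba-a1, Hbb-bs, Hbb-bt and Alas2 were highest in the 3 untreated SLE123 mice, and Hba-a2 was at 0 in all 3 of them.

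In B6 mice the 2 more abundant globin genes were higher with treatment. Hba-a1 stood at 1.90, 5.33 and 2.55 FPKM in treated mice against the untreated values given above, a ratio of means of 5.47 and a log2 fold change of 1.35 ± 0.30 (SE, limma adjusted p = 0.0277). Hbb-bs stood at 0.853, 2.67 and 2.06 FPKM, a ratio of 5.20 and a log2 fold change of 1.02 ± 0.24 (limma adjusted p = 0.0324). Both genes were higher in 3 of 3 treated mice than in any untreated mouse. In this comparison 14.9% of all tested genes were called, 8.74% of all tested genes were called higher, and 19.4% were higher without overlap. Hbb-bt, at 0.210, 1.83 and 0.423 FPKM in treated mice, overlapped the untreated mice and was not called (log2 fold change 0.58 ± 0.32, limma adjusted p = 0.257). Alas2 stood at 0.217, 0.210 and 0.292 FPKM, above each untreated mouse, with 23 fragments in all against 15. The call of Hba-a1 was lost when B6 treated replicate 5 or any of the 3 untreated B6 mice was left out (limma adjusted p = 0.0508 to 0.0879). That of Hbb-bs was lost without any mouse other than treated replicate 1 (limma adjusted p = 0.0706 to 0.103), and neither gene was called with all 12 mice in one fit or in the table without a filter, by limma (4.88% of 23230 genes called) or by voom (9.52%).

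In SLE123 mice the globin genes were lower with treatment, and the difference did not pass the test. Hba-a1 stood at 8.07, 1.22 and 1.48 FPKM in treated SLE123 mice, Hbb-bs at 4.58, 0.682 and 0.631 FPKM and Hbb-bt at 1.10, 0.227 and 0.310 FPKM. Every treated mouse was below every untreated SLE123 mouse for these 3 genes and for Alas2 (0.496, 0.182 and 0.107 FPKM), and 6.02% of tested genes were lower without overlap in this comparison. The ratio of untreated to treated means was 5.78 for Hba-a1, 5.22 for Hbb-bs and 6.27 for Hbb-bt, or 15.4, 15.6 and 12.7 without SLE123 treated replicate 1. The log2 fold changes were -2.54 ± 0.52 (SE, limma adjusted p = 0.333), -2.17 ± 0.46 (limma adjusted p = 0.373) and -1.50 ± 0.30 (limma adjusted p = 0.308). All 3 genes had an unadjusted limma p under 0.05, from 0.00145 to 0.00217, none was called by limma's voom method on the recovered fragments, and 0.0381% of all tested genes were called, or 0.0229% by voom. Treated replicate 1, the SLE123 library with liver transcripts, was the highest of the treated mice for all 4 genes. Without it, Hba-a1 and Hbb-bs were called lower, with log2 fold changes of -3.19 and -2.75 (limma adjusted p = 0.026 and 0.0258). The share of all tested genes called in that fit is not given here, so whether these calls stand out from it cannot be told.

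Between treated mice of the strains no difference in the globin genes was called, and 52.1% of all tested genes were. The treated SLE123 and treated B6 values of Hba-a1, Hbb-bs, Hbb-bt and Alas2 overlapped, with log2 fold changes of the tested genes between -0.13 and -0.18 (SE 0.35 to 0.57) and limma adjusted p of 0.704 to 0.867. None of the 3 had an unadjusted p under 0.05, and voom, which called 53.1% of all tested genes, called none. Hba-a2 was lower in each treated SLE123 mouse, at 0.107, 0 and 0 FPKM, than in each treated B6 mouse. In the table without a filter, where 29.2% of 23230 genes were called by limma and 32.6% by voom, it was called lower (limma adjusted p = 0.0496, voom adjusted p = 0.013). The effect of treatment itself differed between the strains for the 3 tested globin genes, with 3.64% of all tested genes called for this difference and 2.38% called lower. Expressed as the log2 change in SLE123 minus that in B6, it was -3.89 ± 0.67 (SE) for Hba-a1 (limma adjusted p = 0.0104), -3.19 ± 0.58 for Hbb-bs (limma adjusted p = 0.0139) and -2.09 ± 0.49 for Hbb-bt (limma adjusted p = 0.0419). The first pair of calls held with any 1 of the 12 mice left out. The call of Hbb-bt held without B6 treated replicate 1, SLE123 treated replicate 1 or SLE123 untreated replicate 1 and was lost without any of the other 9 mice (limma adjusted p = 0.0552 to 0.105).

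**Figure D3:**
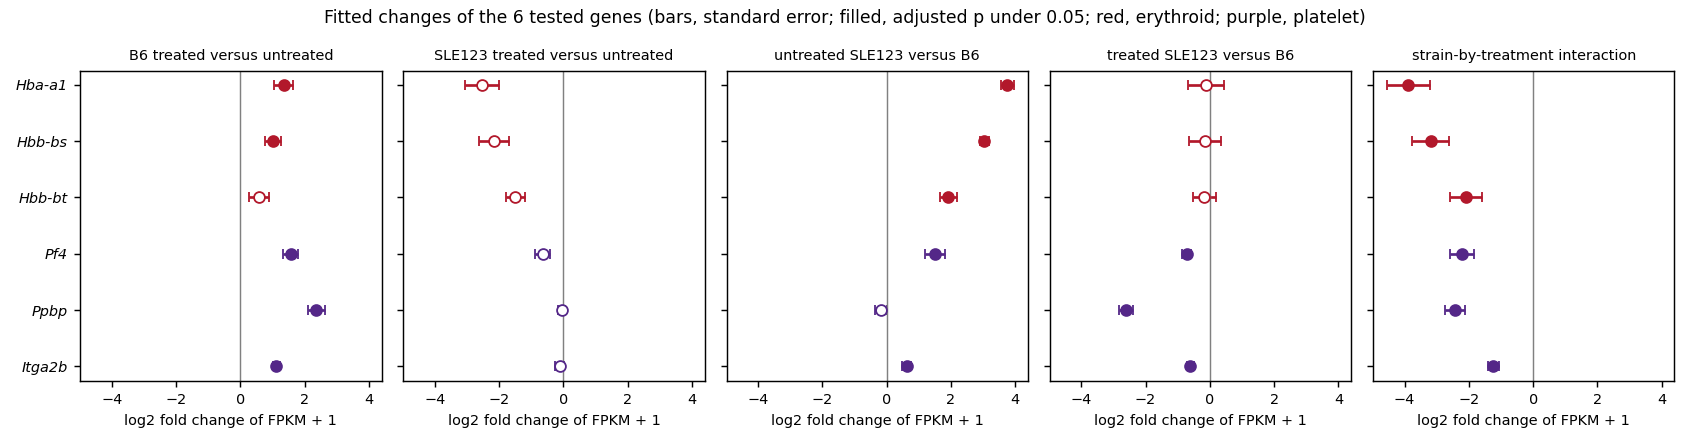
Log2 fold changes (of FPKM + 1) of the 6 tested genes in the 4 pairwise comparisons and for the strain-by-treatment interaction, with standard errors as bars and filled points for an adjusted p under 0.05. Hba-a1 rose by 1.35 with treatment in B6, stood 3.76 higher in untreated SLE123 than in untreated B6, and had an interaction of -3.89, while Ppbp stood apart between treated mice at -2.61.

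Genes of the red cell membrane and of late erythroid cells were examined as a list of 27, of which 26 were in the table and 18 passed the filter. Between untreated strains 16 of the 18 were called higher in SLE123 and 1 lower, beside 42.9% of all tested genes called. Over all tested genes 22.8% were called higher, and the median log2 fold change was 1.31 for the 18 against -0.03. Some of the 18, among them Slc4a1, passed the filter only through untreated SLE123, where being higher was a condition of their being tested. The largest were Car2, a carbonic anhydrase of red cells, at 30.6, 48.2 and 74.1 FPKM against 8.35, 8.28 and 10.8 FPKM (log2 fold change 2.28), the mouse erythroid claudin Cldn13 (1.83), the beta spectrin gene Sptb (1.75) and Rhag, of the Rh complex (1.59). The gene called lower was Epb41, a membrane skeleton gene at a mean of 32.1 FPKM that other cells also transcribe. Car1, another carbonic anhydrase, had the highest mean of the list, 56.8 FPKM, and stood at 24.2, 27.4 and 41.2 FPKM even in untreated B6 mice, whereas Hba-a1 stayed under 1 FPKM there. Between treated mice 5 of the 18 were called higher in SLE123 and none lower, beside 52.1% of all tested genes called. The 5 were led by Sptb (log2 fold change 1.41), Car2 (1.02), Ermap (0.93) and Bpgm (0.64). After rescaling to TPM 5 were called higher and 1 lower.

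Treatment called none of these 18 genes in either strain by limma, although 6 in B6 and 4 in SLE123 had an unadjusted p under 0.05 and voom called 3 in B6 and none in SLE123. Over all tested genes limma called 14.9% with treatment of B6 and 0.0381% with treatment of SLE123. Counts by unadjusted p are given throughout without the share over all tested genes. The same holds for counts by voom with the filter in B6 and for the interaction. For the interaction 1 of the 18 was called, beside 3.64% of all tested genes, and 7 had an unadjusted p under 0.05. The gene called was Tmcc2, at -1.13 (limma adjusted p = 0.0257). Of 7 further globin genes in the table, which belong to embryonic or minor chains, none reached 0.11 FPKM in any mouse.

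Haem synthesis and iron genes gave a mixed picture. Of 21 listed, 20 were tested, and between untreated strains 8 were called higher and 3 lower in SLE123, beside 42.9% of all tested genes called. After rescaling to TPM 8 were called higher and 5 lower, and no share over all tested genes is given for TPM here. Alad, the second enzyme of haem synthesis, stood at 33.2, 51.7 and 68.4 FPKM in untreated SLE123 and at 6.66, 8.501 and 9.66 FPKM in untreated B6 (log2 fold change 2.44). It was also high in treated SLE123, at 40.2, 36.5 and 40.7 FPKM, where the globin genes were lower than in untreated SLE123. The haem-degrading enzyme Hmox1 was called higher as well (2.44), with its top value of 19.7 FPKM in SLE123 untreated replicate 3, the library rich in macrophage markers, as was the transferrin receptor gene Tfr2 (1.09). The ferritin light chain gene Ftl1 was called lower in SLE123, at 131.3, 186.8 and 172.3 FPKM against 470, 475.3 and 479.4 FPKM (log2 fold change -1.55), while the heavy chain gene Fth1, at a mean of 519.8 FPKM, was not called. Between treated mice 13 genes were called higher and 4 lower, beside 52.1% of all tested genes called. After rescaling to TPM the counts were 6 and 4. With treatment of B6, Ftl1 rose (0.21) and Ppox and Slc25a37 fell (-0.27 and -0.23), beside 14.9% of all tested genes called. With treatment of SLE123 none of the 20 was called by limma or voom, with 1 at an unadjusted p under 0.05, and for the interaction again none by either, with 6. The largest differences between treated strains were those of Ftl1 (-1.99), Alad (1.91), Hmox1 (1.59) and Steap3, a ferric reductase gene (0.73).

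Among 15 regulators of erythroid and megakaryocyte cells, 13 were tested. Between untreated strains 42.9% of all tested genes were called, and 22.8% were called higher in SLE123. Of the 13 regulators 9 were called higher in untreated SLE123 than in untreated B6 and 3 lower. The higher ones were led by Lyl1 (log2 fold change 1.83), Lmo2 (1.64), the erythroid factor Klf1 (1.55) and the erythropoietin receptor gene Epor (1.27). Klf1 stood at 4.54, 9.49 and 11.5 FPKM in untreated SLE123 and at 1.37, 2.31 and 2.71 FPKM in untreated B6. The lower ones, Ldb1, Fli1 and Runx1, are transcribed in T cells too, and Ldb1 had the highest mean of the list, 183.4 FPKM. With treatment of B6, 4 rose and none fell, beside 8.74% of all tested genes called higher. The 4 were Gata2 (1.04), Lmo2 (0.70), Lyl1 (0.63) and Nfe2 (0.56), a factor of megakaryocyte maturation. Gata2 is also on the list of basophil and mast cell markers. In SLE123 none was called by limma or voom, with 1 at an unadjusted p under 0.05. Between treated strains 5 were called higher and 2 lower, beside 52.1% of all tested genes called. Lmo2 (0.87), Lyl1 (0.78) and Tal1 (0.68) were the largest of the higher ones, and Ldb1 stood at -0.48. For the interaction none was called by limma, beside 3.64% of all tested genes called. Voom called 1 and 5 had an unadjusted p under 0.05, both without a share over all tested genes here.

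The platelet genes had another order of groups, with treated B6 mice at the top for 5 of the 5 by the mean and untreated B6 mice at the bottom for 4 of the 5. Ppbp stood at 7.92, 3.62 and 6.00 FPKM in treated B6 mice and at 0.689, 0.0512 and 0.173 FPKM in untreated B6 mice, a ratio of means of 19.2 and a log2 fold change of 2.37 ± 0.27 (SE, limma adjusted p = 0.00359). Pf4 stood at 4.91, 3.34 and 3.86 FPKM against 1.38, 0.660 and 0.212 FPKM, a ratio of 5.38 and a log2 fold change of 1.57 ± 0.25 (limma adjusted p = 0.0104). Itga2b stood at 6.29, 4.69 and 6.00 FPKM against 2.20, 1.995 and 1.93 FPKM, a ratio of 2.77 and a log2 fold change of 1.12 ± 0.11 (limma adjusted p = 0.00215). All 5 platelet genes were higher in each treated B6 mouse than in any untreated one, where 19.4% of tested genes were. Gp9 stood at 1.46, 1.21 and 1.03 FPKM against 0.153, 0 and 0.153 FPKM. Treml1 stood at 1.00, 0.392 and 0.715 FPKM against 0, 0.0443 and 0.249 FPKM. In the table without a filter Gp9 was called (limma adjusted p = 0.0176), Treml1 was not (0.118) and Pf4 no longer was (0.0573). The calls of Ppbp, Pf4 and Itga2b held with any 1 of the 6 mice left out. The ratios of means rest in part on untreated replicate 3, which had 12 of the 16 Ppbp fragments of its group, and without it they were 52.2 for Ppbp and 9.24 for Pf4.

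**Figure D4:**
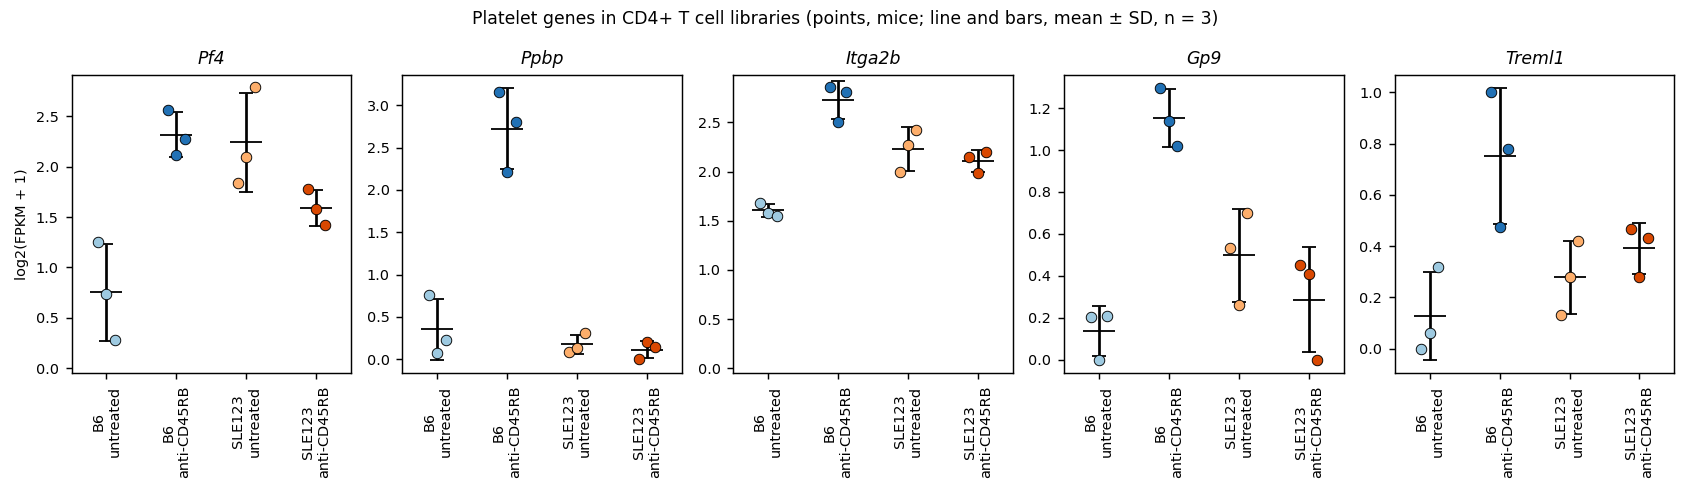
Levels of the 5 platelet genes as log2(FPKM + 1) in each mouse (points) of the 4 groups, with the mean and SD (n = 3), each panel on its own scale. The 3 treated B6 mice lay above the 3 untreated B6 mice for each gene, and Ppbp was at or under 0.235 FPKM in all 6 SLE123 mice.

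In SLE123 mice none of the tested platelet genes was called with treatment. Pf4 stood at 2.43, 1.99 and 1.68 FPKM in treated mice and at 2.58, 3.29 and 5.92 FPKM in untreated mice, without overlap (log2 fold change -0.65 ± 0.24, limma adjusted p = 0.466). Itga2b stood at 3.42, 2.97 and 3.60 FPKM against 2.98, 3.81 and 4.38 FPKM and overlapped (-0.12 ± 0.14, limma adjusted p = 0.73). Ppbp was near the limit of detection in both groups, at 0, 0.147 and 0.101 FPKM with 5 fragments in all and at 0.0560, 0.0991 and 0.235 FPKM with 9. Gp9 stood at 0.366, 0.327 and 0 FPKM against 0.448, 0.198 and 0.626 FPKM, and Treml1 at 0.381, 0.213 and 0.350 FPKM against 0.0970, 0.214 and 0.339 FPKM. Of the 3 tested genes only Pf4 had an unadjusted limma p under 0.05, and voom called none. Without SLE123 treated replicate 1 or any other mouse none was called.

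Between untreated mice, Pf4 and Itga2b were called higher in SLE123 than in B6 and Ppbp was not called. The ratio of means was 5.24 for Pf4 (log2 fold change 1.49 ± 0.31, limma adjusted p = 0.00771) and 1.82 for Itga2b (0.62 ± 0.13, limma adjusted p = 0.00877). Without B6 untreated replicate 3 the ratio of Pf4 was 9.01. The groups did not overlap for either gene, nor for Gp9. Over all tested genes 42.9% were called here, 22.8% were called higher, and 29.1% were higher without overlap. Itga2b was no longer called after rescaling to TPM (0.40, limma adjusted p = 0.0516). Ppbp had a log2 fold change of -0.18 ± 0.19 (limma adjusted p = 0.477) at 9 fragments against 16. Between treated mice Pf4 and Itga2b differed in the other direction, and with Ppbp all 3 were called lower in SLE123, by -2.61 ± 0.23 for Ppbp (limma adjusted p = 0.000183), -0.73 ± 0.14 for Pf4 (limma adjusted p = 0.00513) and -0.62 ± 0.11 for Itga2b (limma adjusted p = 0.0038). Of all tested genes 22.5% were called lower there. The 5 platelet genes were lower in each treated SLE123 mouse than in any treated B6 mouse, where 27.1% of tested genes were. The mean of Ppbp was 70.6 times higher in treated B6 than in treated SLE123 mice, with 289 fragments against 5. It was 115.8 times without SLE123 treated replicate 2 and 47.1 times without SLE123 treated replicate 1.

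The effect of treatment differed between the strains for each tested platelet gene, beside 3.64% of all tested genes called and 2.38% called lower. It was -2.43 ± 0.32 (SE) for Ppbp (limma adjusted p = 0.00338), -2.22 ± 0.38 for Pf4 (limma adjusted p = 0.0101) and -1.24 ± 0.18 for Itga2b (limma adjusted p = 0.00449), again as the log2 change in SLE123 minus that in B6. These calls held with any 1 of the 12 mice left out. In the table without a filter, where 1.79% of genes were called, Gp9 was called as well (-1.23, limma adjusted p = 0.0178), and Treml1 was not (-0.51, limma adjusted p = 0.197).

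Ppbp and Pf4 are neighbours on chromosome 5, with 2371 bases between Ppbp (chr5:90768518-90770063) and Pf4 (chr5:90772435-90773383), and both encode chemokines of the platelet alpha granule. Ppbp stood above Pf4 in the treated B6 mice only. Ppbp was at 1.61, 1.09 and 1.56 times the FPKM of Pf4 in the treated B6 mice and at 0.501, 0.0775 and 0.814 times in the untreated B6 mice, the latter on 16 and 22 fragments in all. In the 6 SLE123 mice the ratio was between 0 and 0.0740, with 14 Ppbp fragments beside 207 of Pf4. The lowest ratio in B6, 0.0775 in untreated replicate 4, was close to these and rested on 1 Ppbp fragment. SLE123 untreated replicate 3 had the highest Pf4 of all 12 mice, 5.92 FPKM, and 0.235 FPKM of Ppbp.

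Further platelet genes were examined as lists. Of 22 granule and signalling genes 13 were tested, and with treatment of B6 9 rose and none fell, beside 8.74% of all tested genes called higher. Of the 9, Tubb1, Gng11 and Clu passed the filter only through treated B6, so that being higher there was a condition of their being tested, and 6 did not. Tubb1, the beta tubulin of platelets, stood at 7.08, 3.22 and 3.38 FPKM in treated B6 mice, at 0.265, 0 and 0.133 FPKM in untreated B6 mice and at or under 0.15 FPKM in SLE123 mice (log2 fold change in B6 2.23). Plek, a signalling protein of platelets and leukocytes, rose by 1.84 on the log2 scale, Nrgn, a calmodulin-binding protein, by 1.57 and the G protein subunit gene Gng11 by 1.204. None of the 13 was called with treatment of SLE123 by limma or voom, and 4 had an unadjusted p under 0.05. Between untreated strains 7 were called higher in SLE123 and 1 lower, beside 42.9% of all tested genes called and 22.8% called higher. Of the 7, Ptgs1 passed the filter only through untreated SLE123, so that being higher there was a condition of its being tested. The higher ones were led by Plek (2.24), F13a1 (2.22), Nrgn (2.11) and Srgn (1.15), none of which is limited to platelets. Between treated strains 3 were called higher and 5 lower, beside 52.1% of all tested genes called. The lower ones were led by Tubb1 (-2.35), Clu (-1.33), Gng11 (-0.92) and the growth factor gene Pdgfb (-0.88). The first 3 of these are those that passed only through treated B6. For the interaction 6 were called, all lower, beside 2.38% of all tested genes called lower. Of the 6, 2 passed only through treated B6. Among the 6 were Tubb1 (-2.27), F13a1 (-1.76), Pdgfb (-1.60) and Plek (-1.59).

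Of 16 platelet receptor and adhesion genes 9 were tested. With treatment of B6, 4 rose and none fell, beside 8.74% of all tested genes called higher. The 4 were Gp5 (0.68), which belongs to the von Willebrand factor receptor, Cd9 (0.51), the ADP receptor gene P2ry1 (0.43) and Itgb3 (0.30). Itgb3 encodes the beta chain that pairs with the product of Itga2b. Between untreated strains it was called lower in SLE123, unlike Itga2b, at 15.4, 13.6 and 10.6 FPKM in SLE123 mice and 44.3, 45.1 and 48.7 FPKM in B6 mice (-1.74). Between treated strains both genes were called lower in SLE123, Itga2b by -0.62. Between untreated strains 2 were called higher and 3 lower, beside 42.9% of all tested genes called. After rescaling to TPM, for which no share is given, 1 was called higher and 4 lower. Without rescaling the other lower ones were the thromboxane receptor gene Tbxa2r (-1.12) and the thrombin receptor gene F2rl3 (-0.74). Between treated strains 5 were called lower and none higher, beside 52.1% of all tested genes called, with Itgb3 (-1.46), Tbxa2r (-1.19), F2rl3 (-0.52) and Gp1ba (-0.44) the largest. The interaction called Cd9 (-0.49), beside 3.64% of all tested genes, and after rescaling to TPM none of the 9. None was called with treatment of SLE123 by limma or voom, and 2 had an unadjusted p under 0.05.

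**Figure D5:**
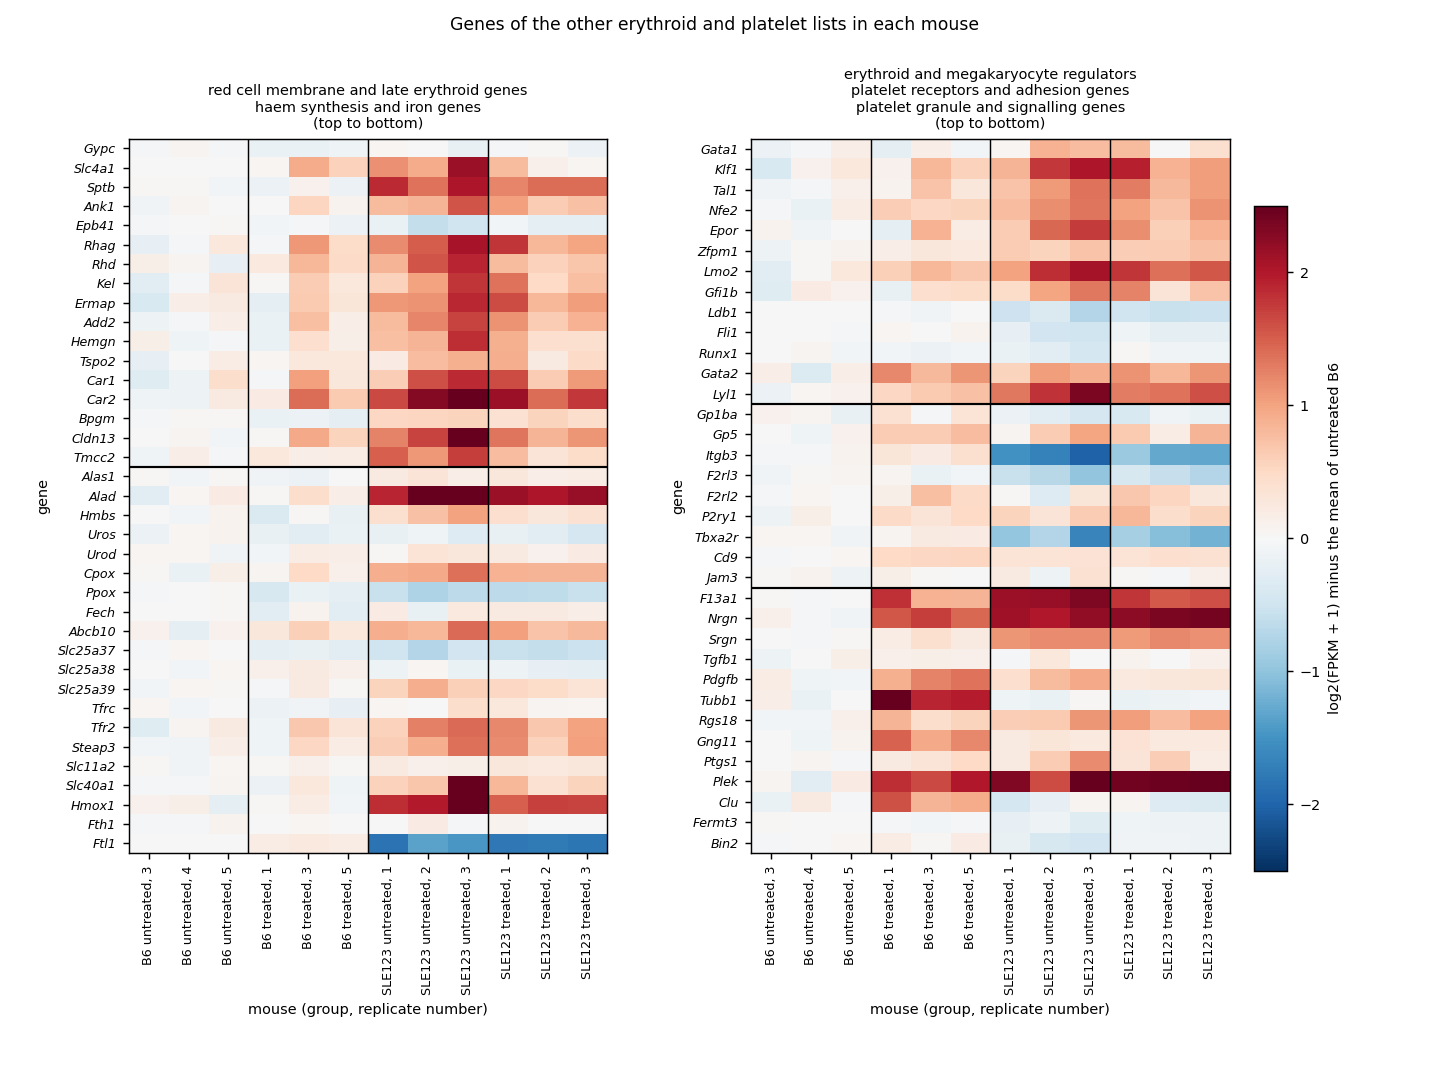
Genes of the 5 further erythroid and platelet lists (rows) in the 12 mice (columns), as log2(FPKM + 1) minus the mean of the untreated B6 mice, with the colour scale ending at 2.5 on either side. Car2 and Alad were higher in all 6 SLE123 mice than in the untreated B6 mice, whereas Tubb1 and Clu were highest in the 3 treated B6 mice.

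Set side by side, the lineages had different highest groups and the same lowest group. As the mean of log2(FPKM + 1) over its 5 genes, the erythroid level was 2.02 to 2.38 in untreated SLE123 mice, 0.665 to 1.43 in treated B6, 0.487 to 1.49 in treated SLE123 and 0.181 to 0.465 in untreated B6. The platelet level was 1.69 to 2.18 in treated B6 mice, 0.915 to 1.33 in untreated SLE123, 0.839 to 0.968 in treated SLE123 and 0.490 to 0.777 in untreated B6. Untreated SLE123 mice thus stood apart in the erythroid level and treated B6 mice in the platelet level, while treated B6 and treated SLE123 mice overlapped in the first and both SLE123 groups overlapped in the second. B6 treated replicate 1 had the highest platelet level and the lowest erythroid level of the treated B6 mice. B6 treated replicate 3 had the reverse, the lowest platelet level and the highest erythroid level of that group. Of the untreated B6 mice, replicate 3 had the highest platelet level and the lowest erythroid level. In SLE123 the same mouse was highest in both levels, treated replicate 1 (1.49 and 0.968) and untreated replicate 3 (2.38 and 1.33). Since the mice fell into groups, no correlation over all 12 is given.

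Among the genes outside the 10 whose pattern was most like the erythroid level, by Pearson's r of log2(FPKM + 1) over the 12 mice, were Slc4a1 (r = 0.935), Camk2n1 (0.909), Ear2, Lmna, Lamp1, Tmcc2, Blvrb, Ubfd1 and Mxi1 (0.882). Slc4a1 had group means of 1.99 FPKM in untreated SLE123, 0.537 in treated B6, 0.345 in treated SLE123 and 0.0440 in untreated B6. Most like the platelet level were Ccl6 (r = 0.987), Gng11 (0.960), Cd244a, Flt3, Alox12, Klra8, Cdh1, Ctla2a, Cacnb3 and Cyp11a1 (0.928). Ccl6 had group means of 8.58 FPKM in treated B6, 2.40 in untreated SLE123, 1.23 in treated SLE123 and 0.271 in untreated B6. Some of the genes like the platelet level, among them Gng11, Cd244a, Alox12 and Klra8, had means under 0.5 FPKM in every group other than treated B6. They passed the filter only through that group, which was also the highest in the platelet level. Slc4a1 likewise passed only through untreated SLE123, the highest group in the erythroid level. Spearman's rho with the platelet level ran from 0.609 for Klra8 to 1.000 for Ccl6. The coefficients describe 12 libraries in 4 groups and carry no p-value.

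The stretch upstream of each gene's start was read from RefSeq annotation of GRCm38.p6, as 250 bases before the start, and searched on both strands for GATA motifs (AGATAA or TGATAA, with A or G as the last letter), for CACCC, for CCAAT and for CAGGAAG. All 10 genes had a window. Some RefSeq starts lie inside the genes as placed by GENCODE, the source of the gene coordinates given above. The windows of Hba-a1, Hbb-bs and Alas2, among others, therefore reach into the genes as placed there. A GATA motif was found in 4 of the 5 erythroid windows and 0 of the 5 platelet windows, and in 26.5% of 32851 promoters. CACCC was found in 5 of 5 erythroid and 1 of 5 platelet windows, and in 52% of all promoters, and CCAAT in 4 and 2 windows and 33.8% of all promoters. CAGGAAG was found in 0 of the 10 windows and in 10.8% of all promoters. The windows of Hba-a1 and Hba-a2 share a stretch of 247 bases, whereas those of Hbb-bs and Hbb-bt share at most 14 and those of Pf4 and Ppbp at most 8. Shown are the windows of 3 erythroid genes that were high in untreated SLE123 mice and of the neighbouring chemokine genes Pf4 and Ppbp. Their positions are chr11:32283422-32283671 (Hba-a1, plus strand), chr7:103827929-103828178 (Hbb-bs, minus), chrX:150547167-150547416 (Alas2, plus), chr5:90772185-90772434 (Pf4, plus) and chr5:90768268-90768517 (Ppbp, plus), and capitals mark GATA motifs.
Hba-a1: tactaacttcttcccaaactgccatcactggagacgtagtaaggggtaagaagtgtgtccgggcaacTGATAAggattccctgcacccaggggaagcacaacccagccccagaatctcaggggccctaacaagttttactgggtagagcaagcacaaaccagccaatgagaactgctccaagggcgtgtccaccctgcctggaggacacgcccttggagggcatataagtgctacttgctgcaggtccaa
Hbb-bs: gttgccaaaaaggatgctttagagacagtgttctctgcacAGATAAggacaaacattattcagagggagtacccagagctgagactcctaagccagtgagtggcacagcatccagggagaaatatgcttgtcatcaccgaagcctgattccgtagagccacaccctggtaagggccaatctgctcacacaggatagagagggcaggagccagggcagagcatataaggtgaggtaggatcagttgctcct
Alas2: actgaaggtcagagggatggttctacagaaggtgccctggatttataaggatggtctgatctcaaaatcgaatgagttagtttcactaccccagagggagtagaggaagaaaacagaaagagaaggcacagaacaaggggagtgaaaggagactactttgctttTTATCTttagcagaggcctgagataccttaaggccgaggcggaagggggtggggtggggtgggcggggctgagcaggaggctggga
Pf4: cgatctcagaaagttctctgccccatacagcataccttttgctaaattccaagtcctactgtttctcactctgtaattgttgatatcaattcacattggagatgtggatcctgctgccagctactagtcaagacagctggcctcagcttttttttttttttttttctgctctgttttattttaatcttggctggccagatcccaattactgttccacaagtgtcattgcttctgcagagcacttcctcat
Ppbp: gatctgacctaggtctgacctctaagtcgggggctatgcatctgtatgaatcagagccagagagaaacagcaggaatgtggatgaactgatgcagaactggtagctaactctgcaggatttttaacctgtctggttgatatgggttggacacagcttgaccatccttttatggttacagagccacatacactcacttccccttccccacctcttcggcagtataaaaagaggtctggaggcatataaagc
A match describes these letters only and is not a measured binding site.

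Markers of other cells also differed between the groups, not all in the same order, and are given as summed FPKM. Basophil and mast cell markers (7 genes) reached 5.07 to 6.99 in untreated B6, 18.2 to 36.2 in treated B6, 34.3 to 43.1 in treated SLE123 and 101 to 114.5 in untreated SLE123. With treatment of B6 5 of the 7 rose, beside 8.74% of all tested genes called higher. Between untreated strains 6 were called higher in SLE123, beside 22.8% of all tested genes. After rescaling to TPM, for which no share is given, 6 were called higher and 1 lower. Markers of monocytes, macrophages and neutrophils (12 genes) reached 12.9 to 18.1, 67.3 to 130, 80.9 to 96.7 and 122.9 to 198 in the same order, and B cell markers (8 genes) 6.46 to 7.85, 27.1 to 35.7, 38.0 to 58.1 and 64.5 to 239.5. Red pulp macrophage markers (9 genes) stayed at 2.23 to 3.21 in all B6 mice and reached 7.23 to 7.71 in treated and 11.7 to 86.0 in untreated SLE123 mice. Markers of CD8 T cells and NK cells (8 genes) reached 95.4 to 98.6 in untreated and 151.4 to 182.8 in treated B6 and 62.0 to 88.3 in SLE123 mice. Endothelial markers (8 genes, of which 1 was tested) reached 67.9 to 79.4 in B6 and 34.8 to 57.0 in SLE123 mice. T cell markers (12 genes) reached 5595 to 5729 in untreated and 5082 to 5182 in treated B6 mice, without overlap. With treatment of B6 6 of the 12 fell and none rose, beside 14.9% of all tested genes called and 8.74% called higher. The T cell sums were 5020 to 5120 in treated and 4124 to 5761 in untreated SLE123 mice. The part of these cells in the erythroid and platelet differences was not tested.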

How the data were processed

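The authors deposited FPKM values per Ensembl gene and library. Per the labels and methods, reads called with CASAVA 1.8 were stripped of adaptors and low-quality sequence and aligned with STAR to mm10. The annotation and the counting program are not given in the sources used here. The labels do not name the CD25 fraction, whose separation the methods mention.

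Symbols came from GENCODE M21 (GRCm38), where 34490 of 35275 identifiers matched. The FPKM values of 100% of the 23230 genes above 0 were whole multiples of 1 fragment (tolerance 0.01), which gave fragments and depth, and 3 fragments on 2000 bases equal 0.0634 to 0.111 FPKM. Mice were grouped by the labels. Genes averaging 0.5 FPKM or more were tested with limma 3.58.1 (R 4.3.3, lmFit, then eBayes with a trend) on log2(FPKM + 1), whose fold changes understate those of low genes. Pairwise comparisons used the 6 mice concerned, the interaction all 12. The fit was tested on simulated data. The comparisons share control groups. P-values measure the spread between these mice.

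The members, the gene lists and the tests were chosen with earlier results of these data known. Named from each list of erythroid and platelet genes are up to 4 called genes with the largest change per comparison and the 3 with the highest mean, and for each lineage the 10 genes most like it, of which 1 is not reported here. Other genes named with values were chosen after their values were seen. The correlation of the lineage levels was planned and is not reported, since the mice fell into separate groups. Results were recomputed without a filter or with one at 1 FPKM, with a pseudocount of 0.1, with TPM, with centring on the median log-ratio, eBayes without a trend, voom on recovered fragments, the replicate number as a block, all 12 mice in one fit and each mouse left out. Voom without a filter was added after the data were seen.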

Additional observations from a re-analysis of the deposited data

Results flagged for a closer look

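The effect of anti-CD45RB differed between the strains for each of the 6 tested genes, by the strain-by-treatment interaction in limma over 12 mice. This interaction was called for 3.64% of all tested genes. As the log2 change in SLE123 minus that in B6, the values were -3.89 for Hba-a1 (limma adjusted p = 0.0104), -3.19 for Hbb-bs (limma adjusted p = 0.0139) and -2.09 for Hbb-bt (limma adjusted p = 0.0419) among the erythroid genes. Among the platelet genes they were -2.22 for Pf4 (limma adjusted p = 0.0101), -2.43 for Ppbp (limma adjusted p = 0.00338) and -1.24 for Itga2b (limma adjusted p = 0.00449). Of these, Ppbp passed the filter through the treated B6 mice alone, so that a difference of that group was a condition of its being tested. For Alas2, as for Hba-a1 and Hbb-bs, each treated B6 mouse was above each untreated B6 mouse and each treated SLE123 mouse below each untreated SLE123 mouse. In B6 Alas2 had 23 fragments with treatment against 15 without. Its difference of -0.61 was not tested in the filtered table, and without the filter it was not called (limma adjusted p = 0.0956).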

How the results depend on the processing

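No member called in any comparison changed direction under an alternative. With no filter, with all 12 mice in one fit and with voom on unfiltered fragments, 0 erythroid genes were called with treatment of B6, against 2. No filter, and voom without it, called 1 erythroid gene between treated strains, Hba-a2, against 0. Rescaling to TPM, which shifted the median of all genes by -0.35 between untreated strains, -0.16 between treated strains, 0.18 with treatment of SLE123 and 0.19 in the interaction, left 1 platelet gene called between untreated strains, against 2, and turned Itga2b with treatment of SLE123 to 0.04. Leaving out 1 mouse gave 0 to 2 erythroid genes called with treatment in each strain, and changes of -0.11 to 0.005 for Ppbp with treatment of SLE123, -0.32 to 0.022 for Ppbp between untreated strains, and -0.78 to 0.24 for Hba-a1, -0.73 to 0.15 for Hbb-bs and -0.42 to 0.19 for Hbb-bt between treated strains, none of them called. The causes were not tested.

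Whether the replicate numbers pair the mice cannot be told from the values. The deviations of same-numbered mice from their group means correlated at -0.14 and -0.0936 in B6 and 0.137, -0.161 and 0.266 in SLE123. Those of differently numbered mice correlated at -0.134 to 0.2 in B6 and -0.327 to 0.211 in SLE123. With 3 mice per group such correlations cannot exclude a pairing. With the replicate number as a block, 0 erythroid and 0 platelet genes were called in B6 and 0 and 0 in the interaction, and Hba-a1 and Hbb-bs turned to 0.15 and 0.21 between treated strains. The block could not be fitted between untreated strains, which share 1 number.

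In single SLE123 mice Ppbp rests on 0 to 6 fragments and Hba-a2 on 0 to 1, so that a fall or a small change of either with treatment was not detectable at this depth.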
